A study of Mus musculus with 22 samples.

Results

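Regions of H3K4me3 that differed from untreated wild-type (WT) synovial fibroblasts both in Tg197 cells and in TNF-treated WT cells, at 8 weeks of age, were compared directly between those 2 conditions. A region was taken when its listed interval in the table of Tg197 against WT and its listed interval in the table of TNF-treated against untreated WT overlapped by at least 50% of each. This gave 368 matched regions out of 26201 listed in the 4 tables of the series, which is 12.6% of the 2923 regions of the Tg197 table and 11.9% of the 3082 regions of the TNF table. Arid5b, just inside the limit, overlapped by 50%, and the closest pairs outside it overlapped by 48.0% and 47.6%.

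The series profiled cultured mouse synovial fibroblasts of the CBA x C57BL/6J strain at passages 4 to 5, with 21 ChIP libraries in 7 groups of 3 and 1 input library. The groups used here were cells of the Tg197 genotype at 8 weeks, WT cells of 8 weeks with added TNF, and untreated WT cells of 8 weeks, and further Tg197 and WT cells of 3 and 11 weeks. Tg197 is a single transgenic line that carries a deregulated human TNF gene in every cell of the mouse and develops arthritis. Dose and duration of the added TNF are not given in the sources used here, and separate animals or cultures are not named for the 3 libraries of any group, so p-values measure only the spread between these libraries. Both 8 week tables were divided by the same untreated WT libraries: their WT reads were equal in 162 of 162 values of the 54 regions with identical coordinates.

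H3K4me3 marks the nucleosomes around active transcription start sites (TSS) and extends into the first kilobases of strongly transcribed genes. TNF binds its receptors on fibroblasts and releases NF-kB from the IkB proteins, and NF-kB then switches on inflammatory genes together with genes for its own inhibitors. Synovial fibroblasts are a main target of TNF in the joint lining and respond with matrix proteases, chemokines and growth factors.

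Among the matched regions were promoters of 3 such inhibitors, Nfkbia, Tnfaip3 and Nfkbie, and of Irf1, a transcription factor gene induced by TNF and interferon. The 250 bases before the TSS of these 4 genes are shown because each holds the NF-kB consensus motif, which is in capitals, and those of Timp3 and Fpgs because these were the only regions past the test between the 2 conditions. The sequences are from RefSeq on the GRCm38.p6 build, on the strand of the gene, and lie outside the listed regions' own mm9 coordinate system. In the Tg197 table the listed regions of Nfkbia and Tnfaip3 were centred 2082.5 and 1314.5 bp downstream of the TSS. Those of Irf1 and Nfkbie were centred 976.5 and 636.5 bp downstream. Whether a motif lies inside a listed region was not determined.
Nfkbia, chr12:55492648-55492897, minus strand: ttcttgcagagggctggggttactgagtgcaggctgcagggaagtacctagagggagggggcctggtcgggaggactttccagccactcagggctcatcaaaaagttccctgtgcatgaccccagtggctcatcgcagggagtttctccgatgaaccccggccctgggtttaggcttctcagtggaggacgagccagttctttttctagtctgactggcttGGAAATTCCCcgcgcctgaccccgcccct
Tnfaip3, chr10:19015411-19015660, minus strand: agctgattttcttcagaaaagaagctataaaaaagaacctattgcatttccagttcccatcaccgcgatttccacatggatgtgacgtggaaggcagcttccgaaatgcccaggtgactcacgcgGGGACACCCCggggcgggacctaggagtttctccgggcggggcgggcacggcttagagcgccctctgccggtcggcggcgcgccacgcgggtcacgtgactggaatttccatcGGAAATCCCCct
Nfkbie, chr17:45555450-45555699, plus strand: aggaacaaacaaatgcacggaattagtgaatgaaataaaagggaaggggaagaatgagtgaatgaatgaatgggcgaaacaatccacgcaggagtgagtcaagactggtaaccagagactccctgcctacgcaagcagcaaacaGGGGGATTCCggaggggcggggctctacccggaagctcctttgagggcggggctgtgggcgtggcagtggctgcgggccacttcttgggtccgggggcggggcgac
Irf1, chr11:53769764-53770013, plus strand: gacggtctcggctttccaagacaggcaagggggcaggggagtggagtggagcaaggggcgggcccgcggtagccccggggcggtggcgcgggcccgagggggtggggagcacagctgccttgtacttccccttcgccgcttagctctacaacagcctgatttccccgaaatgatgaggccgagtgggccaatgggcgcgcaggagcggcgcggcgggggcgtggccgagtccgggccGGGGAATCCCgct
Timp3, chr10:86300162-86300411, plus strand: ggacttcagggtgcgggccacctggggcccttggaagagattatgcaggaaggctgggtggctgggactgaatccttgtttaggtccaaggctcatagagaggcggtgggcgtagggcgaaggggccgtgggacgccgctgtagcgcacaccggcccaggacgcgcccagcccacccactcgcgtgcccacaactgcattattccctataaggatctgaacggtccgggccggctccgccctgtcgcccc
Fpgs, chr2:32694176-32694425, minus strand: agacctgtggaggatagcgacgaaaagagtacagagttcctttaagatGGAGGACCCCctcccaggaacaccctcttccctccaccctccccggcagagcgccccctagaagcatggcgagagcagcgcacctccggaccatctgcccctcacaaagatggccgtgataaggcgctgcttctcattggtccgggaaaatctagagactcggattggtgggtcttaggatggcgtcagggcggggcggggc

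The motif began 29 bases before the TSS in Nfkbia, 125 and 12 bases before it in Tnfaip3, 106 in Nfkbie, 13 in Irf1 and 202 in Fpgs, and no match lay in this window of Timp3. It was searched on both strands over its 10 positions. Of the 224 genes named by matched promoter regions, 151 had a RefSeq window, and 18 of these (11.9%) held the motif, against 7.3% of all 32851 windows. By direction in the Tg197 table the counts were 11 of 76 for higher regions and 7 of 75 for lower ones. A match is a run of letters and not evidence of binding.

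Depth differed between libraries. The 3 values that share a cell of the table are labelled a, b and c in the order given there. Reads behind 1 normalized read were 1.87, 0.742 and 1.26 in Tg197 libraries a, b and c, 0.553, 2.75 and 1.82 in the TNF-treated libraries and 0.684, 0.636 and 1.39 in untreated WT in the Tg197 table (0.583, 0.544 and 1.23 in the TNF table). The listed regions held from 390496 to 849692 reads in the Tg197 libraries, from 321448 to 1312112 in the TNF-treated libraries and, in untreated WT, from 460895 to 613057 in the Tg197 table and from 411176 to 723640 in the TNF table. In the authors' deposited table, 97.4% of the Tg197 regions and 96.9% of the TNF regions had an adjusted p under 0.05, and so had 358 and 353 of the 368 matched regions. With limma on the libraries, 0.0% of the 2923 regions of the Tg197 table passed in either direction (1876 of the 2923, and 218 of the 368 matched regions, had an unadjusted p under 0.05), whereas 16.5% of the TNF table rose and 42.6% fell. Because only regions with a difference from WT were listed, the cell type could not be checked against markers that do not change; Pdpn (podoplanin), a membrane protein of synovial lining fibroblasts, was the only one of 15 fibroblast markers with a matched region, and none of the listed leukocyte, endothelial, muscle or nerve and epithelial markers had one. Of the 15 cartilage, bone and fat markers, Comp and Sox9 had one, both lower than WT in both tables, and the leukocyte genes Ccr7 and Cd72, which are on no list, also had one.

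The matched regions were a mix of promoters and distal sites. Of the 368, 224 (60.9%) lay within 3 kb of a TSS, against 40.0% of all regions in the Tg197 table and 59.3% in the TNF table. Another 83 lay in gene bodies, 58 in intergenic DNA and 3 in the mitochondrial genome. Relative to WT, 132 were higher and 236 lower in Tg197 cells (35.9% higher, against 21.4% of that whole table), and 120 were higher and 248 lower in TNF-treated cells (32.6%, against 26.3%). In 111 regions all 6 libraries of Tg197 and TNF-treated cells were above the WT average, and in 232 all 6 were below it. The rule takes regions that are listed in both tables and both tables share their WT libraries, so these directions describe the selection and were not tested. In such bulk cultures, fewer cells with the mark and less of the mark per cell cannot be told apart. Mean levels at promoters ran from 0.37 to 1.76 times WT in Tg197 cells and from 0.28 to 1.89 times WT in TNF-treated cells.

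Directions differed with distance from the TSS, and each class median reflects its mix of higher and lower regions. Higher in the Tg197 table were 17 of 25 regions within 250 bp of a TSS, 50 of 101 at 250 bp to 1 kb, 42 of 98 at 1 to 3 kb, 12 of 83 in gene bodies and 8 of 58 in intergenic DNA. Within 250 bp of a TSS (25 regions) the median log2 level over WT was 0.44, 0.24 and 0.29 in Tg197 libraries a, b and c and 0.25, 0.39 and 0.41 in the TNF-treated libraries. At 250 bp to 1 kb it was -0.42, -0.30 and -0.15 in Tg197 and -0.08, -0.39 and -0.30 in TNF-treated libraries, and at 1 to 3 kb it was -0.57, -0.35 and -0.39 in Tg197 and -0.29, -0.57 and -0.43 in TNF-treated libraries. In gene bodies (83 regions) it was -1.46, -0.67 and -0.75 in Tg197 and -0.70, -1.79 and -1.16 in TNF-treated libraries, against 0.20, 0.11 and -0.54 in untreated WT. Intergenic regions (58) had -1.44, -0.74 and -0.77 in Tg197, -0.73, -1.95 and -1.24 in TNF-treated and 0.15, 0.08 and -0.48 in untreated WT libraries. Every Tg197 and TNF-treated median in gene bodies and intergenic DNA was below every WT median, and the nearest were Tg197 library b (-0.67) and WT library c (-0.54) in gene bodies.

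In several sets of regions the medians were ordered by the depth of the library. At the 121 regions outside promoters that were lower in the Tg197 table, the deepest Tg197 library (a) had a median of -1.59, library c -0.80 and the shallowest (b) -0.75. In the TNF-treated cells the deepest library (b) had -1.90, library c -1.25 and the shallowest (a) -0.76, and in untreated WT the deepest library (c) had -0.60 against 0.22 and 0.13. At the 109 promoters that were higher, the same order held in both treated conditions: 0.65, 0.50 and 0.35 in Tg197 libraries a, c and b, and 0.59, 0.45 and 0.38 in TNF-treated libraries b, c and a. At the 115 promoters that were lower, the medians were -0.78, -0.53 and -0.63 in Tg197 libraries a, c and b, which is not the order of depth, and -0.79, -0.58 and -0.52 in TNF-treated libraries b, c and a, which is. The part of depth in the results that follow was not tested.

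**Figure D1:**
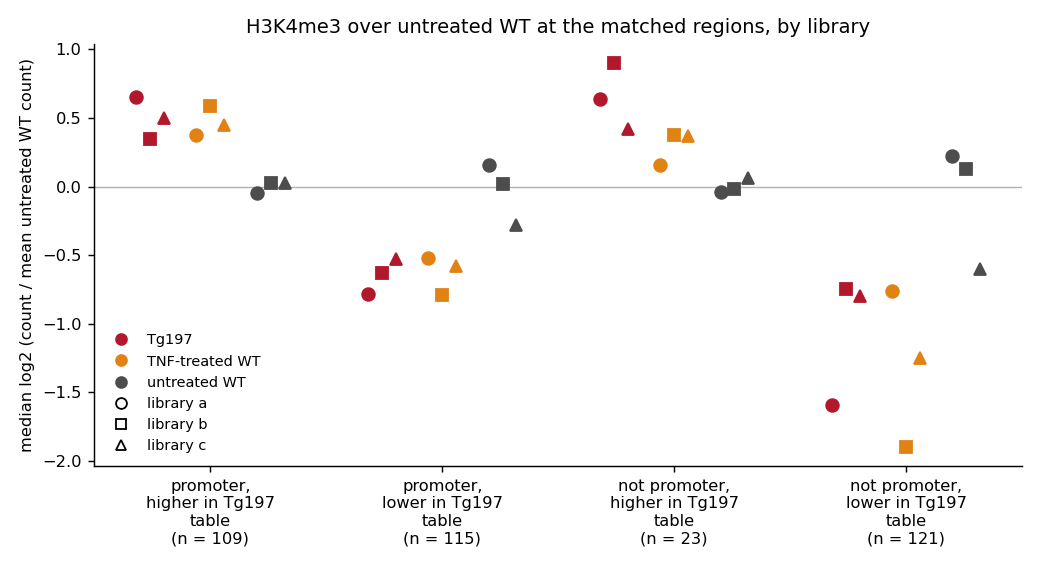
Median log2 ratio of the normalized count to the mean untreated WT count (y axis) over 4 sets of matched regions (x axis), with 1 symbol per library of Tg197, TNF-treated WT and untreated WT cells. Libraries of 1 condition spread most at lower regions outside promoters, where Tg197 library a has -1.59 and TNF-treated library b has -1.90.

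Set directly against each other, Tg197 and TNF-treated cells differed past the test at 2 of the 368 regions. The rule takes regions listed against the same WT libraries in both tables. The other 2555 regions of the Tg197 table and 2714 of the TNF table were therefore not compared. A low count in regions chosen this way does not measure how alike the conditions are. Timp3 and Fpgs had more H3K4me3 in Tg197 cells (0.543% of regions tested), and 0.0% had less (limma on log2 of the count over the WT average of its row, Benjamini-Hochberg adjusted p under 0.05 over 368 regions). An unadjusted p under 0.05 was found at 8 regions (2.17%). The median log2 difference, Tg197 over TNF-treated WT, was 0.07, with quartiles of -0.04 and 0.27. Promoters had a median difference of 0.01 and a median standard error (SE) of 0.17, and the other 144 regions had a median of 0.27 and an SE of 0.42.

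A p that misses the threshold does not show that levels are equal. The 95% interval of the difference lay inside 2-fold either way at 243 of the 368 regions, which were 199 of the 224 promoters and 44 of the 144 others. It lay inside 1.5-fold at 140 promoters and 24 others. The changes from WT were themselves smaller than 2-fold at most promoters. Library medians of log2 ran from 0.35 to 0.65 at higher promoters and from -0.79 to -0.52 at lower ones. An interval inside 2-fold can therefore hold a difference as large as the change from WT, and it leaves out the error of the WT average. At 29 regions (7.9%) the 3 Tg197 libraries did not overlap the 3 TNF-treated ones, 14 with Tg197 above and 15 with Tg197 below. In the remaining regions the libraries of the 2 conditions were interleaved.

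**Figure D2:**
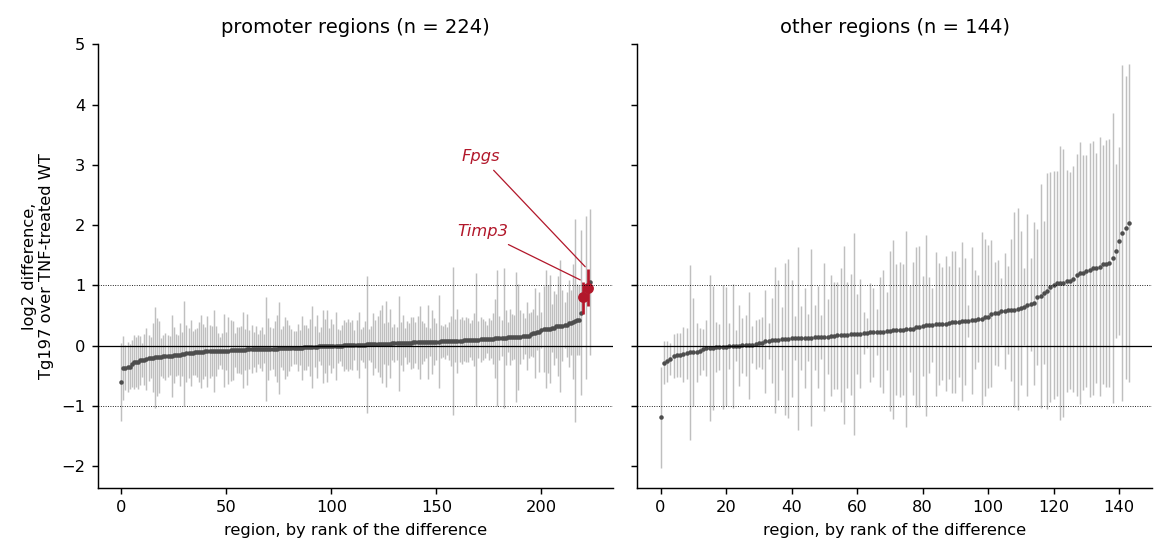
Log2 difference of Tg197 over TNF-treated WT cells (y axis, points) with its 95% limma interval (lines) at 224 promoter and 144 other matched regions, ordered by size along the x axis, with dotted lines at 2-fold. Timp3 and Fpgs, in red, are the 2 regions past the adjusted p, and intervals are wider outside promoters (median SE 0.42) than at promoters (0.17).

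Timp3 encodes a matrix-bound inhibitor of metalloproteinases that also blocks the enzyme shedding TNF from cells. Its region (mm9, chr10:85764901-85765900, centred 2244.5 bp downstream of the TSS) had 197, 217 and 216 normalized reads in Tg197 cells, against 161, 148 and 179 in untreated WT. Over the TNF table's interval, which is 100 bp longer at its end, TNF-treated cells had 161, 146 and 149 normalized reads, against 213, 186 and 217 in untreated WT on that table's scale. All 3 Tg197 libraries were therefore above their WT libraries and all 3 TNF-treated libraries below theirs. As ratios to the WT average this was 1.29 ± 0.07 in Tg197 and 0.74 ± 0.04 in TNF-treated cells (SD, n = 3 libraries each), a log2 difference of 0.80 ± 0.11 (SE, limma adjusted p = 0.0446).

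Fpgs encodes folylpolyglutamate synthase, which holds folates and antifolate drugs such as methotrexate inside cells. Its region (mm9, chr2:32548401-32549400, 793.5 bp from the TSS) had 217, 197 and 194 normalized reads in Tg197 cells, against 187, 173 and 154 in untreated WT. The TNF table's interval (chr2:32547801-32549100) had 134, 136 and 160 in TNF-treated cells, against 287, 232 and 190 in untreated WT. The ratios to WT were 1.18 ± 0.07 in Tg197 and 0.61 ± 0.06 in TNF-treated cells (SD, n = 3 libraries each), with a log2 difference of 0.96 ± 0.13 (SE, limma adjusted p = 0.0446). These 2 intervals overlap by only 53.8%, so the values come in part from different bases, and the Timp3 intervals overlap by 90.9%.

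Neither call was firm. Leaving out any one of the 6 Tg197 and TNF-treated libraries gave 0 calls, with limma adjusted p from 0.161 to 0.442 for Timp3 and 0.161 to 0.252 for Fpgs, although the log2 differences stayed between 0.77 and 0.85 for Timp3 and 0.91 and 1.05 for Fpgs. Leaving WT library a out of the average, a choice made after seeing the data, also gave 0 calls (limma adjusted p = 0.059 for both). With voom on the recovered reads there were 0 calls as well, with 25 regions at an unadjusted p under 0.05.

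Of the 14 genes on the list of NF-kB inhibitors, 3 had a matched region. Their means were above WT in both tables (3 of 3). Of the 224 matched promoters, 109 were above WT in the Tg197 table and 107 in the TNF table. Over all matched regions the shares were 35.9% and 32.6%. None of the 3 passed the test between conditions, with a median log2 difference of -0.12 against 0.07 over all 368 regions. Nfkbia, which encodes IkB-alpha, lay at chr12:56590501-56592600 (mm9) and had 484, 436 and 581 normalized reads in Tg197 cells, against 304, 278 and 272 in untreated WT. In the TNF table's longer interval it had 742, 903 and 925 in TNF-treated cells, against 467, 443 and 450 in untreated WT. Every Tg197 and TNF-treated library was above every WT library of its table.

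Expressed over WT, Nfkbia stood at 1.70, 1.53 and 2.04 in Tg197 and 1.64, 1.99 and 2.04 in TNF-treated cells, a log2 difference of -0.11 with a 95% interval of -0.52 to 0.30. Tnfaip3, which encodes the ubiquitin-editing enzyme A20 (chr10:18732901-18734900), stood at 1.94, 1.22 and 1.64 in Tg197 and 1.56, 2.11 and 1.83 in TNF-treated cells, with an interval of -0.73 to 0.30. For Nfkbie, which encodes IkB-epsilon (chr17:45692701-45693900), the ratios were 1.68, 1.01 and 1.69 in Tg197 and 1.38, 1.72 and 1.54 in TNF-treated cells. In all 3 genes the ranges of the conditions overlap, and Nfkbie in Tg197 library b (221 normalized reads) lay inside the WT range of 192 to 243. The lowest Tg197 value in each is library b, the shallowest of its group, and the lowest TNF-treated value in each is library a, also the shallowest. The 2 intervals overlap by 72% for Nfkbia, 57% for Tnfaip3 and 50% for Nfkbie, so these ratios come in part from different bases.

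Other TNF-response and fibroblast genes on the lists lay above WT in both conditions. Irf1 had 1.21, 1.47 and 1.35 times the WT level in Tg197 and 1.14, 1.85 and 1.48 in TNF-treated cells. In the authors' own comparison with WT, Irf1 did not pass in Tg197 cells (adjusted p = 0.247). It passed in TNF-treated cells (authors' adjusted p = 0.00134). Fas, the death receptor of the TNF receptor family, had 1.23, 1.31 and 1.68 in Tg197 and 1.19, 1.51 and 1.87 in TNF-treated cells. Pdpn spread widely inside both conditions, with 1.91, 1.08 and 1.60 in Tg197 and 1.32, 1.86 and 1.36 in TNF-treated cells. The cytoskeletal gene Actn4 (alpha-actinin 4) had the smallest spread among them, with 1.43, 1.46 and 1.53 in Tg197 and 1.41, 1.38 and 1.44 in TNF-treated cells (log2 difference 0.06, 95% interval -0.17 to 0.30), and Actb (beta-actin) had 1.03, 1.22 and 1.56 against 1.07, 1.41 and 1.23. None of these passed the test between conditions. The 2 intervals overlap by 76% for Irf1, 58% for Actb, 55% for Pdpn, 52% for Fas and 50% for Actn4. The ratios therefore come in part from different bases. Untreated WT libraries of Actn4 stood at 0.86, 0.93 and 1.21 times their average over the Tg197 table's interval.

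Below WT in both conditions were a growth factor and genes of cartilage and bone. Csf1, the macrophage growth factor, had 0.64, 0.71 and 0.83 times the WT level in Tg197 and 0.68, 0.52 and 0.68 in TNF-treated cells. Sox9, the transcription factor of cartilage development, had 0.88, 0.56 and 0.75 in Tg197 and 0.69, 0.64 and 0.75 in TNF-treated cells. Comp, a cartilage matrix protein, had 0.45, 0.67 and 0.66 against 0.64, 0.44 and 0.67, and Sp7 (osterix), the transcription factor of osteoblasts, had 0.31, 0.61 and 0.58 against 0.70, 0.38 and 0.62. The values of Tg197 and TNF-treated cells overlapped in each of these 4 genes. Their 2 intervals overlap by 91% for Csf1, 76% for Sox9, 61% for Sp7 and 53% for Comp. Over all 19 lists, with 462 genes, 13 genes had a matched region, Timp3 was the only one past the test, and their median log2 difference was -0.01.

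**Figure D3:**
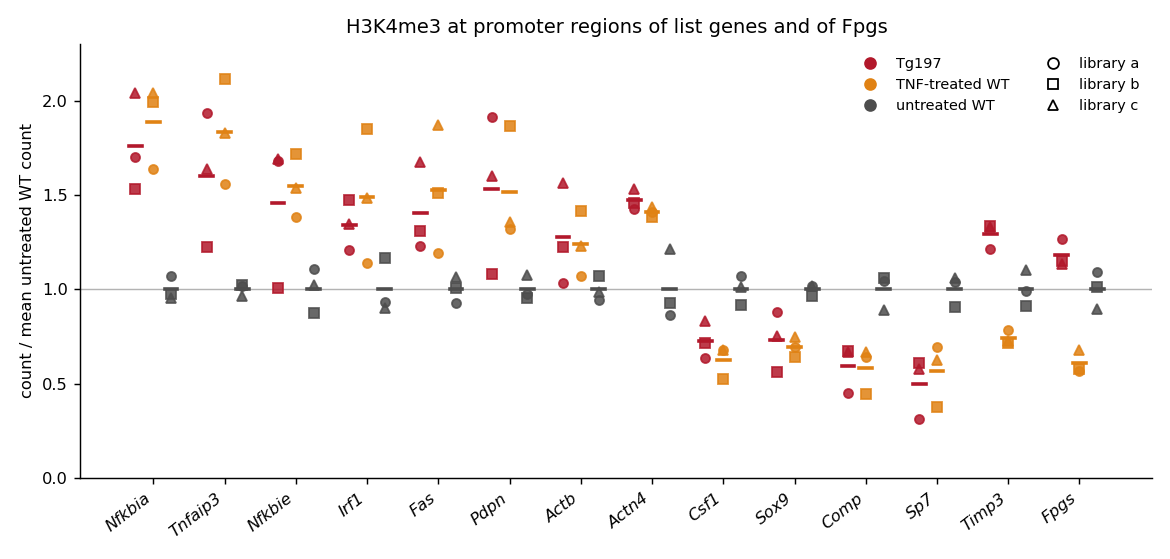
Normalized count divided by the mean untreated WT count of its table (y axis) at the matched promoter region of 14 genes, with 1 symbol per library and a bar for the mean of 3. Tg197 and TNF-treated libraries lie on the same side of 1 and overlap in all genes but the last pair, Timp3 (1.29 and 0.74) and Fpgs (1.18 and 0.61).

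The highest mean levels over WT at promoters, averaged over both conditions, included those of Nfkbia, Tnfaip3, Tollip and Pion. Tollip, an adaptor that restrains Toll-like and interleukin-1 receptor signalling, had an interval identical in both tables and stood at 2.15, 1.60 and 1.28 in Tg197 and 1.39, 1.63 and 1.84 in TNF-treated cells. Pion, the activator of gamma-secretase, had 1.75, 1.36 and 1.39 in Tg197 and 1.55, 1.77 and 1.80 in TNF-treated cells. The log2 differences of Tollip (0.03) and Pion (-0.20) did not pass the test.

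The lowest promoters were those of Ccr7, Kirrel2, Hrh3, Cd72 and Paqr6. Ccr7, a chemokine receptor of lymphocytes and dendritic cells, had 0.22, 0.43 and 0.46 times WT in Tg197 and 0.47, 0.20 and 0.34 in TNF-treated cells. Cd72, a co-receptor of B cells, had 0.32, 0.54 and 0.58 in Tg197 and 0.56, 0.23 and 0.40 in TNF-treated cells. Hrh3, the histamine H3 receptor, had 0.43, 0.58 and 0.56 in Tg197 and 0.45, 0.13 and 0.26 in TNF-treated cells. In all 3 the lowest library of each condition was its deepest, and the WT libraries of Ccr7 spread from 115.5 in the deepest to 254 normalized reads.

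Few promoters came near a difference between the conditions beyond Timp3 and Fpgs. On the negative side, the 10 with the smallest p included Rnf5, a ubiquitin ligase of the endoplasmic reticulum, at 0.49, 0.55 and 0.69 times WT in Tg197 and 0.78, 0.71 and 0.72 in TNF-treated cells (log2 difference -0.36 ± 0.15, SE). Tmem88, an inhibitor of Wnt signalling, had 0.29, 0.50 and 0.60 in Tg197 and 0.72, 0.61 and 0.69 in TNF-treated cells (-0.60 ± 0.27), and Dlgap5, a mitotic spindle protein, had 0.68, 0.49 and 0.68 against 0.80, 0.77 and 0.77 (-0.35 ± 0.17). In these 3 genes all Tg197 libraries were below all TNF-treated ones, but the limma adjusted p was 0.999 for each. Their 2 intervals overlap by 60% for Rnf5, 50% for Tmem88 and 82% for Dlgap5. The lowest Tg197 library was the deepest, a, in Rnf5 and Tmem88 but b in Dlgap5. The rest were Ankrd13b, Rps21, Zbtb22, Ddx10, Slc12a7, Cd97 and Rexo2, with log2 differences between -0.37 and -0.24.

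On the positive side, the closest after Timp3 and Fpgs was Igfbp4, which binds insulin-like growth factors. It had 0.60, 0.71 and 0.75 times WT in Tg197 and 0.56, 0.55 and 0.61 in TNF-treated cells, a log2 difference of 0.26 ± 0.12 (SE, limma adjusted p = 0.999). Lfng, a glycosyltransferase that modifies Notch, had 0.70, 0.80 and 0.71 in Tg197 and 0.59, 0.62 and 0.68 in TNF-treated cells, without overlap. The others were Slc27a3, Hrh3, Sned1, Isyna1, Mapksp1 and Lamb1-1, with differences from 0.29 to 1.06, none past the adjusted p.

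At 14 regions the mean was above WT in one condition and below it in the other, and 12 of these were not promoters. The 3 regions on the mitochondrial genome, which carries no nucleosomes, were among them. The region at 5001 to 7200 of that genome held 20501, 17116 and 4836 normalized reads in Tg197 libraries a, b and c, against 5948, 6799 and 8088 in untreated WT. Over the TNF table's interval, 5301 to 6900, it was 0.51, 0.23 and 0.74 times WT in TNF-treated cells, against 2.95, 2.46 and 0.70 in Tg197 cells over its own interval. Tg197 libraries a and b were thus high and library c was below WT, and the log2 difference of 1.96 ± 1.04 (SE) had a limma adjusted p of 0.999. An intergenic region on chromosome 1 (24622501 to 24623800) followed the same libraries, with 2.73, 2.18 and 0.59 times WT in Tg197 and 0.55, 0.25 and 0.69 in TNF-treated cells, and so did one on chromosome 12 (98298801 to 98299800).

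A second set turned on Tg197 library b and TNF-treated library b. The intergenic region on chromosome 3 (8245001 to 8247200) had 0.38, 2.55 and 1.34 times WT in Tg197 and 0.85, 0.17 and 0.63 in TNF-treated cells, and regions in the gene bodies of Gsdma2, Kctd16 and Gtf2ird1 and 2 intergenic regions on chromosome 2 had the same order of libraries in Tg197 cells. In all 6 the highest Tg197 library was the shallowest, b, and the lowest TNF-treated library was the deepest, b. The remaining region had Tg197 below WT and TNF-treated cells above it, an intergenic interval on chromosome 12 (20201701 to 20202700) at 0.87, 0.72 and 0.33 times WT in Tg197 and 1.31, 1.32 and 1.43 in TNF-treated cells. Its groups did not overlap, and its log2 difference was -1.19 ± 0.35 (SE, limma adjusted p = 0.999). Regions of this paragraph and the one before it were chosen after their values were seen.

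**Figure D4:**
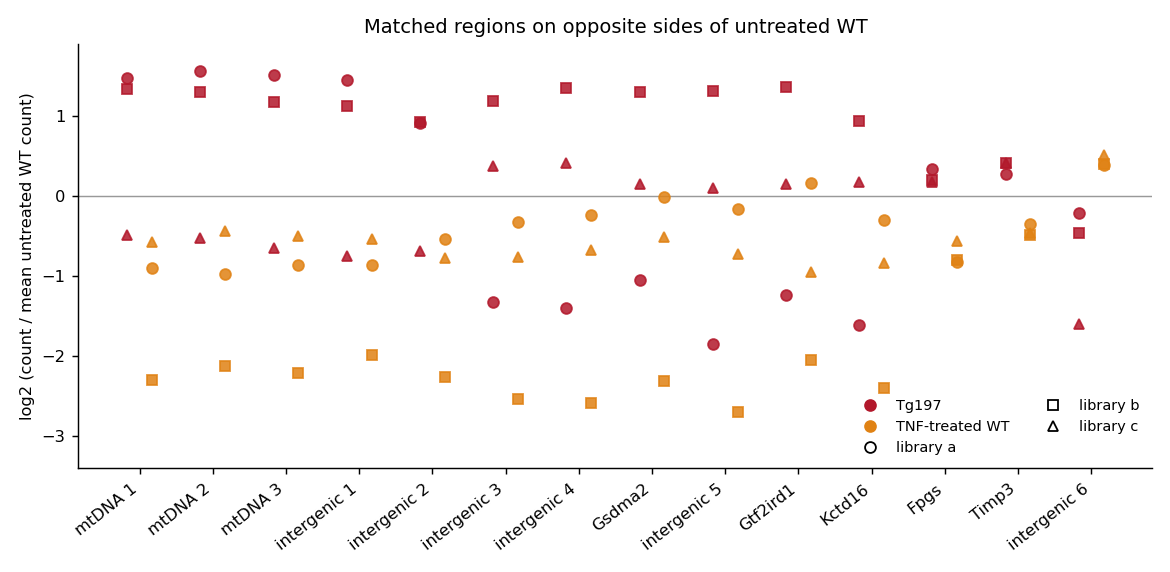
Log2 ratio of the normalized count to the mean untreated WT count (y axis) at the 14 matched regions whose means lie on opposite sides of WT, with 1 symbol per library and regions ordered by the difference. Libraries of 1 condition fall on both sides of 0 in most regions outside promoters, whereas the 3 libraries of each condition stay together at Fpgs, Timp3 and the region at the right end.

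Libraries of other ages, which had no part in choosing the regions, gave a check of direction for Tg197. Depth differed between these libraries too. At 3 weeks, reads behind 1 normalized read were 1.26, 1.72 and 0.736 in Tg197 libraries a, b and c and 0.952, 0.895 and 0.812 in WT. At 11 weeks they were 0.934, 0.976 and 1.19 in Tg197 and 0.906, 1.15 and 0.890 in WT. The part of depth in the directions at these ages was not tested. Of the 368 matched regions, 40 (10.9%) were also listed at 3 weeks and 27 (7.3%) at 11 weeks, against 6.7% and 3.5% of the other 2555 regions of the 8 week Tg197 table. A listed region had to differ from WT at its age, so only its direction was free. At 3 weeks, 17 of the 40 had been higher at 8 weeks, and all 17 were above WT, 15 of them past limma's adjusted p, where 4.68% of all regions listed at 3 weeks rose. The other 23 had been lower at 8 weeks, and 22 fell at 3 weeks, where 88.9% of all listed regions fell. At 11 weeks, 14 of 15 regions higher at 8 weeks rose (29.6% of all listed regions rose), and 11 of 12 lower ones fell (67.7% of all listed regions fell). The regions higher at 8 weeks lay within 3 kb of a TSS, except Asap1 at 3 weeks and an intergenic region on chromosome 11 at 11 weeks. The shares of all listed regions cover every position, and the shares of promoters alone at these ages are not given here.

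The exceptions were 3 regions. Leng9, lower in both 8 week tables and at 11 weeks (log2 -0.37 ± 0.12, SE), was at 0.42 ± 0.21 at 3 weeks without passing limma (adjusted p = 0.0649). Its listed interval was 4100301 to 4101800 at 3 weeks and 4099701 to 4100700 at 11 weeks, so these values come in part from different bases. Arfgap1, an activator of the ARF1 GTPase in Golgi transport, was higher in both 8 week tables and at -0.17 ± 0.10 at 11 weeks (limma adjusted p = 0.0962). An intergenic region on chromosome 17 was lower at 8 weeks and rose at 11 weeks by 0.56 ± 0.23 (limma adjusted p = 0.0354), with 241 normalized reads in Tg197 library a and 116 and 121 in b and c, against 109, 107 and 89.9 in WT.

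**Figure D5:**
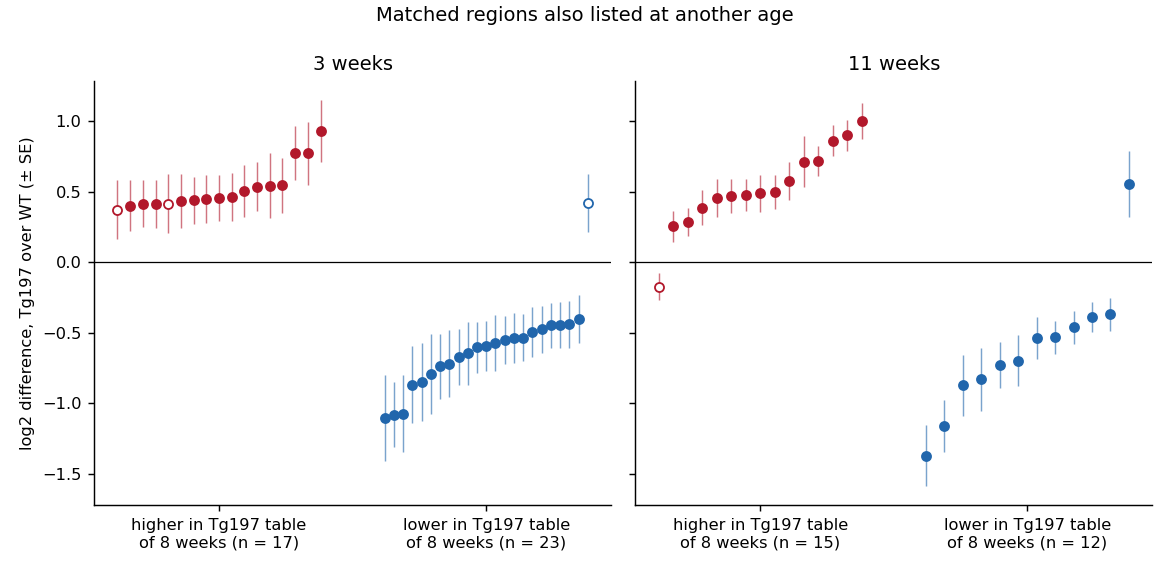
Log2 difference of Tg197 over WT cells with its SE (y axis) at 3 weeks (40 regions) and 11 weeks (27 regions) for matched regions that were higher (red) or lower (blue) in the Tg197 table of 8 weeks, with filled symbols past limma's adjusted p. All 17 higher regions listed at 3 weeks and 14 of 15 at 11 weeks lie above 0.

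Of the 9 matched regions listed in all 4 tables, 7 rose at both 3 and 11 weeks and were above WT in both 8 week conditions: Nfkbia, Tnfaip3, Irf1, Hivep2, Dram1, Osbpl5 and Zdhhc12. Of all listed regions, 4.68% rose at 3 weeks and 29.6% at 11 weeks. These shares cover every position, whereas the 7 regions all lay within 3 kb of a TSS. A region in the gene body of 2210009G21Rik, lower in both 8 week tables, fell at both ages (log2 -0.85 ± 0.27 and -1.16 ± 0.18, SE). Leng9, described above, was the other region. Nfkbia had 1140, 1222 and 809 normalized reads in Tg197 cells of 3 weeks, against 598, 730 and 518 in WT, and 582, 703 and 833 in Tg197 cells of 11 weeks, against 375, 379 and 367 in WT. Tg197 and WT libraries did not overlap at either age. Hivep2, a zinc finger protein that binds NF-kB-like sites, rose by 0.45 ± 0.17 on the log2 scale at 3 weeks and 0.46 ± 0.13 at 11 weeks. Dram1, a p53-induced regulator of autophagy, rose by 0.46 ± 0.17 at 3 weeks and 1.00 ± 0.13 at 11 weeks (SE, limma adjusted p = 0.0218 and 0.00305).

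Other regions that kept their direction at one further age covered several functions. At 3 weeks Kdm5c, a demethylase of H3K4, rose by 0.53 ± 0.17, Nfkbie by 0.54 ± 0.23 and Pdpn by 0.44 ± 0.19, whereas Sp7 fell by 0.61 ± 0.18 and the microRNA gene Mir199b fell by 0.45 ± 0.16 (log2 ± SE, limma adjusted p from 0.0144 to 0.0441). Nfkbie had 622, 749 and 386 normalized reads in Tg197 libraries a, b and c of 3 weeks, against 372, 381 and 412 in WT. Its Tg197 library c thus lay inside the WT range. At 11 weeks Yap1, the effector of Hippo signalling, rose by 0.47 ± 0.12, Gadd45a, a stress response gene, by 0.39 ± 0.13 and Plscr1, an interferon-inducible scramblase, by 0.57 ± 0.13, whereas Smad9, a transducer of BMP signals, fell by 0.53 ± 0.12. Neither Timp3 nor Fpgs was listed at 3 or 11 weeks with this overlap.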

How the data were processed

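H3K4me3 ChIP-seq tables of mouse synovial fibroblasts were used, with 3 libraries per group. Regions, on mm9, were listed where the p of their best window did not exceed 0.0001. Per the file headers, the authors gave 3 normalized counts per region and group in a single cell. Deposited group averages are the signal, and the deposited log2 fold and p-value columns are the authors' own comparison. Division of the counts by a fixed step of each library gave whole reads (100.0% of values within 0.02 normalized reads). The headers say treatment and control, and control was read as WT. The submitters' processing notes name BWA, TopHat, TopHat2, Cufflinks and Cuffdiff with no role, and no source used here names the region caller.

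Of 369 pairs, 368 were kept 1 to 1. Counts plus 0.5 were divided by the WT average of their row plus 0.5, because the WT scale differs between tables (0.852 to 0.884). Log2 ratios were fitted with limma 3.58.1 (R 4.3.3, trend in the variance) over all 368 regions, and the error of the WT average is not in the SE. The fit was also run on simulated data. These had a single dispersion for all regions and no division by WT, so they do not show its error rates here. Whole tables were fitted for calls against WT, and "rose" and "fell" mean past limma's Benjamini-Hochberg adjusted p of 0.05. Selection used the same libraries, so adjusted p covers listed regions only.

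Named were promoters of smallest p in each direction (10 each), members of 19 gene lists, the 5 highest and 5 lowest promoters, and called regions of opposite direction; 1 of the highest is not reported here. Members and lists were chosen with earlier results of these data known. No coordinates were converted between builds.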

Additional observations from a re-analysis of the deposited data

Results flagged for a closer look

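Timp3 is set apart because its 3 Tg197 libraries were above WT and its 3 TNF-treated libraries below it, with a log2 difference of 0.80 past limma's adjusted p. Fpgs met the same description with a log2 difference of 0.96, over intervals that overlap by 53.8%. The intergenic region on chromosome 12 (20201701 to 20202700) went the other way, with Tg197 below WT in all 3 libraries and TNF-treated cells above it in all 3, and a log2 difference of -1.19 that did not pass (limma adjusted p = 0.999).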

How the results depend on the processing

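The 2 regions called remained 2 with a pseudocount of 5 or 0.1, a mean count of at least 50, regions past the authors' adjusted p in both tables, and the WT average without library b or c. The count was 0 with counts centred on the matched regions or on those within 1 kb of a TSS, without a trend in the variance, with voom on recovered reads, with an overlap of at least 80% and with identical coordinates (limma adjusted p for Timp3 from 0.0513 to 0.572 where it was tested). Leaving out 1 library at a time gave from 0 to 2 calls. Without division by WT there were 48 calls, 4 higher and 44 lower, and the median log2 difference turned to -0.147. By construction that fit keeps the scales and interval lengths of the 2 tables, and Slc27a3 (-0.66), Lfng (-0.67) and Comp (-0.94) turned in it. The median kept its sign in the other fits, between 0.002 and 0.11. Of 939 values of 51 named regions under the alternatives, 23 lost a call and 33 uncalled ones changed sign. Without division by WT, 11 gained a call with the same sign. Another 3 (Slc27a3, Lfng and Comp) gained a call with the opposite sign in that fit. Overlap of at least 80% left 197 matched regions, with 15 also listed at 3 weeks and 6 at 11 weeks. Identical coordinates left 54, and any overlap gave 45 regions at 11 weeks. No paired analysis was possible because the libraries in a cell carry no replicate numbers.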
